A study of Mus musculus with 12 samples.

Results

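The integrin subunit gene Itgb8 was examined together with 8 genes of transforming growth factor beta (TGF-beta) signalling and of retinoic acid synthesis in lymph node dendritic cells. These 9 genes were chosen by name: the ligands Tgfb1 and Tgfb2, the receptors Tgfbr1 and Tgfbr2, the signal transducers Smad2, Smad3 and Smad7, the retinaldehyde dehydrogenase gene Aldh1a2, and Itgb8 itself. They were 9 of the 18194 genes that had a probe set with a single gene symbol on the array. Itgb8 entered the choice because it was lower on the knockout arrays, so every difference between genotype labels in these 9 genes is given below as a description, with no test. Their change with time, averaged over the genotype labels, did not use that contrast and was tested. The 9 genes were chosen with earlier results of these data known, so those p-values may still depend on the choice.

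RNA came from dendritic cells of C57BL/6 mice, isolated from lymph nodes and kept in culture at 37C. Cells labelled wild type (WT) were compared with cells labelled p38a-knockout (KO), which lack the stress-activated kinase p38 alpha encoded by Mapk14 according to the label; the sources used here do not give the driver or the extent of the deletion, or the age of the mice. All cultures received Pam3CSK4, a synthetic lipopeptide that activates the receptor TLR2, at 1 mg/ml as the protocol states it, and RNA was taken after 0, 2 or 4 h. Every group, 6 in all by label and time, held 2 arrays, A and B; nothing states that they came from separate mice or cultures, so p-values measure the spread between these arrays, which may be technical. There were no arrays without ligand at 2 or 4 h, so an effect of the ligand and one of time in culture cannot be told apart.

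TGF-beta is secreted in a latent form, held inactive by its own propeptide. Integrin alpha v beta 8, which pairs the products of Itgav and Itgb8, is one of the main activators of latent TGF-beta on dendritic cells, and its loss from these cells is known to reduce the induction of regulatory T cells. Active TGF-beta binds TGFBR2, which recruits and phosphorylates TGFBR1; the receptor then phosphorylates SMAD2 and SMAD3, while SMAD7 acts in a negative feedback loop. Aldh1a2 encodes the enzyme that makes retinoic acid in intestinal and mesenteric lymph node dendritic cells, and retinoic acid and TGF-beta act together on T cells.

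The DNA upstream of Itgb8 and Aldh1a2 is shown because these were the 2 members with lower signals on the KO arrays. Both runs are the 250 bases before the annotated gene start, read 5′ to 3′ on the gene's own strand from the RefSeq promoter table (GRCm38.p6), in which 7 of the 9 members had an entry; capitals mark CCAAT boxes and the SMAD element CAGAC.
Itgb8, chr12:119238277-119238526, minus strand: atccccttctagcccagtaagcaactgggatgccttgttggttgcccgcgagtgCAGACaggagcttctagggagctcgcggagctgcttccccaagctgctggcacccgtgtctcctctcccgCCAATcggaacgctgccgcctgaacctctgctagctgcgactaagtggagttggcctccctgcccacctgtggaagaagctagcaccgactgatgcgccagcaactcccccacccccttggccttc
Aldh1a2, chr9:71215539-71215788, plus strand: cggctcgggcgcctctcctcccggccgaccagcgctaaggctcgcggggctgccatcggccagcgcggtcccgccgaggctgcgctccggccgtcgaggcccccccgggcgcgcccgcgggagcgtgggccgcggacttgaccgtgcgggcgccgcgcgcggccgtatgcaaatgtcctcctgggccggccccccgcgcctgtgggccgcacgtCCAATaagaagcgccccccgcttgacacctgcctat
Itgb8 itself lay at chr12:119162803-119238276 and Aldh1a2 at chr9:71215789-71296243 in the same assembly. The Itgb8 run held 1 CCAAT box, starting at position -126 from the gene start, and 1 CAGAC, starting at -196. The Aldh1a2 run held 1 CCAAT box, starting at -36, and no CAGAC. Searched on both strands, neither run held the GC box GGGCGG, the AP-1 site TGACTCA, the cyclic AMP response element TGACGTCA, the TATA box TATAAA or the NF-kB site. Of 32851 promoter windows of the same length, 33.8% held CCAAT, 42.2% CAGAC, 32.7% GGGCGG, 4.46% TGACTCA, 1.55% TGACGTCA, 12.4% TATAAA and 7.25% an NF-kB site. The CCAAT boxes and the SMAD element did not overlap one another. GC content was 62.4% upstream of Itgb8 and 77.6% upstream of Aldh1a2, against a median of 52.4% over all windows. Such matches describe letters in a window and say nothing about binding.

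Values are log2(signal + 16) after quantile normalization of the deposited array signals. The trimmed mean signal per array, as deposited, was between 66.6 and 119, and arrays of the same group correlated with r between 0.987 and 0.990 across genes. Markers of dendritic cells were present: Flt3, a growth factor receptor of the lineage, averaged 10.08 over the 12 arrays, the transcription factor gene Zbtb46 9.08 and the class II gene H2-Aa 12.70. The label check on Mapk14 was of no help: its brightest probe set was 0.31 higher in KO than in WT arrays (limma adjusted p = 0.014), none of the 3 of its 6 probe sets past the filter on low signals was lower, and where these probes lie relative to the deletion is not known. KO therefore means the arrays labelled KO throughout. In RNA from a whole culture, fewer cells of a type and less RNA per cell cannot be told apart.

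All 9 genes had a probe set past the filter on low signals, which is not a detection call. Of their 21 probe sets, 17 reached the filter, a mean of 4.73 on the log2 scale or a signal of 10.6, and each gene is represented below by its brightest probe set; Itgb8 and Aldh1a2 each had only 1. In the mean response over both labels at 2 h, 2 of the 9 rose (Itgb8 and Smad7) and 0 fell, with limma's moderated test and Benjamini-Hochberg adjustment over 12792 genes; 31.3% of all genes tested were called in that comparison, 11.9% higher and 19.4% lower. At 4 h against 0 h, 1 rose (Itgb8) and 2 fell (Smad3 and Tgfb2), against 28.5% of all genes called (11.8% higher, 16.7% lower). From 2 to 4 h, 1 rose (Smad2) and 3 fell (Smad3, Tgfb2 and Smad7), against 22.5% of all genes (11.6% higher, 10.9% lower). The median change of the 9 was 0.15, -0.09 and -0.18 in these 3 comparisons, and that of all genes -0.05, -0.04 and 0.01.

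**Figure D1:**
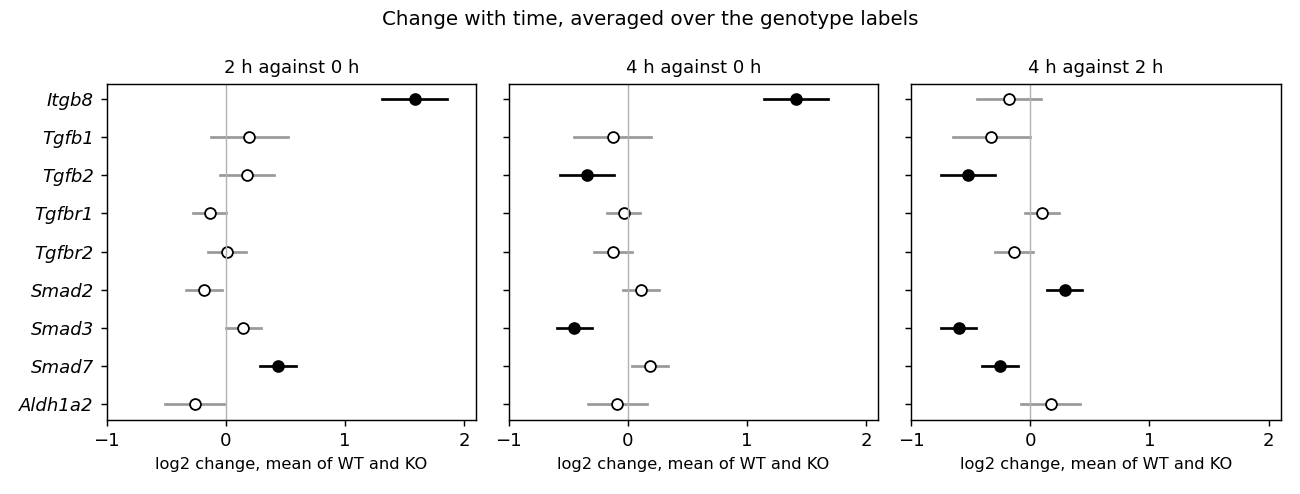
Change of the 9 genes with time in log2 units, as the mean of the WT and KO changes, at 2 h against 0 h, 4 h against 0 h and 4 h against 2 h. Points are limma estimates with their 95% confidence intervals; filled points passed an adjusted p of 0.05. Itgb8 stands apart at 1.58 and 1.41, and the other called changes lie between -0.60 and 0.44.

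Itgb8 rose early and stayed up. WT arrays gave Itgb8 signals of 6.29 and 6.21 at 0 h, then 8.07 and 8.31 at 2 h, then 7.43 and 8.0 at 4 h. KO arrays gave 5.44 and 5.15 at 0 h, then 6.62 and 6.43 at 2 h, then 6.50 and 6.79 at 4 h. Within each label every array at 2 and 4 h was above every array at 0 h, and at each time both KO arrays were below both WT arrays.

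Averaged over the labels, Itgb8 was 3.0-fold higher at 2 h (log2 change 1.58 ± 0.13 SE, limma adjusted p = 9.9e-08). It was 2.65-fold higher at 4 h (1.41 ± 0.13 SE, adjusted p = 4.1e-07). The step from 2 to 4 h was -0.18 ± 0.13 SE and did not pass (adjusted p = 0.36). By the size of the change Itgb8 was number 85 of the 12792 genes at 2 h and number 81 at 4 h. These folds are on the log2(signal + 16) scale, which understates changes of low genes.

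As a description of the values that chose the gene, mean Itgb8 was 0.96 lower in KO than in WT at 0 h, 1.67 lower at 2 h and 1.07 lower at 4 h. The corresponding WT to KO ratios were 1.94, 3.18 and 2.1. In order, the group means were WT 2 h at 8.19 ± 0.17 (SD, n = 2), WT 4 h at 7.71 ± 0.41, KO 4 h at 6.65 ± 0.20, KO 2 h at 6.52 ± 0.14, WT 0 h at 6.25 ± 0.05 and KO 0 h at 5.29 ± 0.20. The arrays of the neighbours KO 4 h and KO 2 h overlapped; those of the other neighbouring groups in this order did not. On the linear scale the mean normalized signal went from 60.1 through 277 to 198 in WT and from 23.4 through 76.1 to 84.6 in KO, and the KO signals at 2 and 4 h lay above the WT signal at 0 h.

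Itgb8 was higher at 2 and 4 h than at 0 h under both labels. The difference from 0 h was 1.94 in WT and 1.23 in KO at 2 h, and 1.46 in WT and 1.35 in KO at 4 h. It was thus 0.71 smaller in KO at 2 h and 0.11 smaller at 4 h; these differences belong to the contrast that chose the gene and were not tested. The WT arrays at 4 h lay far apart. Without WT 4 h A the difference between labels was -1.35 there, and without WT 4 h B -0.78.

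Averaged over the times, the KO minus WT difference of Itgb8 was -1.23, the fourth lowest of the 12792 genes. Itgb8 and Aldh1a2 were the 2 members whose KO arrays lay below the WT arrays at each of the 3 times with no overlap, as did 3.64% of all genes tested. Since the choice used this contrast, nothing is read from that count.

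**Figure D2:**
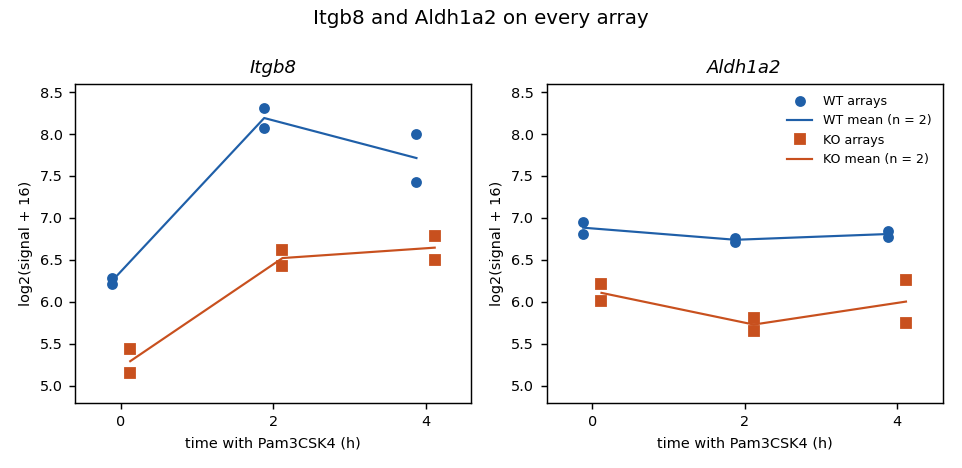
Signals of Itgb8 and Aldh1a2, as log2(signal + 16), on each of the 12 arrays at 0, 2 and 4 h of Pam3CSK4; circles are WT arrays, squares KO arrays, and lines join the means of the 2 arrays. Itgb8 climbs under both labels from 6.25 (WT) and 5.29 (KO), while Aldh1a2 lies between 6.71 and 6.96 on WT arrays and between 5.65 and 6.26 on KO arrays.

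Aldh1a2 was the other member with lower KO signals. WT arrays read 6.96 and 6.81 at 0 h, then 6.77 and 6.71 at 2 h, then 6.78 and 6.84 at 4 h. KO arrays read 6.01 and 6.21 at 0 h, then 5.65 and 5.81 at 2 h, then 5.75 and 6.26 at 4 h. All 6 KO arrays were below all 6 WT arrays, with 6.26 as the highest KO value and 6.71 as the lowest WT value.

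Between labels, KO minus WT for Aldh1a2 was -0.78 at 0 h, -1.01 at 2 h and -0.80 at 4 h, or WT to KO ratios of 1.71, 2.01 and 1.75, again without a test. Its mean over the times, -0.86, was number 13 from the lowest among all genes. Separation of all 6 KO from all 6 WT arrays in that direction occurred in 0.485% of all genes. The KO arrays at 4 h lay far apart: the difference there was -0.55 without KO 4 h A and -1.06 without KO 4 h B.

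The mean response of Aldh1a2 did not pass at any time. It was -0.26 ± 0.12 SE at 2 h (limma adjusted p = 0.10) and -0.09 ± 0.12 SE at 4 h (adjusted p = 0.63). The 95% interval at 4 h ran from -0.34 to 0.16.

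Cell type markers differed with the KO label in several lists. Of 10 macrophage and monocyte markers tested, 8 were higher on KO arrays averaged over the times and 0 lower (median 0.58), where 6.21% of all genes were higher and 4.28% lower. The summed signal of the 11 listed markers with a probe set was 3168 to 3212 in WT and 5226 to 5375 in KO at 0 h, 2317 to 2543 and 3766 to 3910 at 2 h, and 2072 to 2270 and 3596 to 3731 at 4 h. The brightest of them, the lysozyme gene Lyz2, was 0.95 ± 0.05 SE higher in KO (limma adjusted p = 5.9e-09); Cd163, a macrophage scavenger receptor, was below the filter at 4.32. Of 7 endothelial markers 4 were higher and 0 lower, with summed signals of 973 to 1014 in WT and 1246 to 1399 in KO at 0 h. The endothelial sums were 1224 to 1403 and 1478 to 1487 at 2 h, and 869 to 981 and 992 to 1018 at 4 h. Of 10 stromal and fibroblast markers 1 was higher and 0 lower (median 0.09, against 0.03 for all genes). Their sums, which follow the brightest probe sets, did not overlap at any time. They were 824 to 884 in WT and 1121 to 1192 in KO at 0 h. At 2 h they were 842 to 956 and 997 to 1133, and at 4 h 871 to 923 and 1134 to 1208. Of 6 B cell markers 2 were higher and 0 lower, with sums of 524 to 542 in WT and 640 to 707 in KO at 0 h, 501 to 521 and 647 to 654 at 2 h, and 418 to 430 and 464 to 534 at 4 h. Of 13 dendritic cell markers 7 were higher and 1 lower in KO (median 0.17), while Flt3 and Zbtb46 differed by -0.15 and -0.00 (adjusted p = 0.12 and 0.99). The dendritic cell sums were higher on KO arrays without overlap. They were 27901 to 28601 in WT and 29665 to 31980.5 in KO at 0 h. At 2 h they were 30006 to 30945 and 31067 to 32339, and at 4 h 29335 to 29811 and 31211 to 31964. Of 8 migratory dendritic cell and Langerhans cell markers 1 was higher and 0 lower in KO (median -0.06). Unlike the dendritic cell sums, theirs were lower on KO arrays at 0 h, with 16158 to 16283 in WT and 15239 to 15792 in KO. The same held at 4 h (22935 to 23624 and 21970.5 to 22625), and they overlapped at 2 h (20835 to 21165 and 20635 to 21564). The part of these shifts in the lower Itgb8 and Aldh1a2 was not tested.

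Of the T cell side, Foxp3, the regulatory T cell factor, averaged 5.03, close to the filter, with a KO minus WT difference of 0.15 ± 0.11 SE (limma adjusted p = 0.49). Of 6 regulatory T cell markers 1 was higher and 1 lower in KO (median 0.19). Of 10 T cell markers 2 were higher and 2 lower (median 0.07), against 6.21% and 4.28% of all genes. The regulatory T cell sums were 1807 to 1926 in WT and 2242 to 2299 in KO at 0 h. They overlapped at 2 h (2191 to 2274 and 2091 to 2235) and at 4 h (2178 to 2334.1 and 2333.7 to 2401). The T cell sums, which follow the brightest probe sets, were lower on KO arrays without overlap, unlike the median of that list. They were 3196 to 3515 in WT and 2926 to 3058 in KO at 0 h. At 2 h they were 2100 to 2195 and 1964 to 1973, and at 4 h 2232 to 2392 and 2110 to 2169. The lower regulatory T cell marker was Il2ra at -0.75, named after its value was seen; this interleukin-2 receptor gene is also expressed by activated dendritic cells. The part of these T cell values in the lower Itgb8 and Aldh1a2 was not tested.

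The ligand genes gave lower signals than the receptor genes, but signals of different probe sets do not compare amounts of RNA. Tgfb1, the ligand made by most immune cells, ran from 5.75 to 6.29 on WT and from 5.37 to 6.19 on KO arrays. The KO 4 h arrays read 6.12 and 5.37, the widest pair among the Tgfb1 groups. No mean response of Tgfb1 passed: 0.20 ± 0.15 SE at 2 h (limma adjusted p = 0.36), -0.13 at 4 h (0.58) and -0.33 from 2 to 4 h (0.14), although the last passed at -0.52 when KO 4 h A was left out (0.017). Its other probe set, past the filter at 5.24, did not pass either.

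Tgfb2 encodes a second isoform of the ligand. On WT arrays it read 6.05 and 6.17 at 0 h, then 6.31 and 6.51 at 2 h, then 5.73 and 5.99 at 4 h. On KO arrays it read 6.26 and 6.39, then 6.29 and 6.47, then 5.89 and 5.87. Under both labels the 4 h arrays were the lowest.

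The fall of Tgfb2 from 2 to 4 h was 0.52 on the log2 scale, a change of -0.52 ± 0.11 SE (limma adjusted p = 0.0022), and against 0 h the change was -0.35 ± 0.11 SE (adjusted p = 0.023). The change against 0 h was lost when KO 0 h B, KO 4 h A, KO 4 h B, WT 0 h B or WT 4 h A was left out, with adjusted p up to 0.10. The other 2 probe sets past the filter changed by -0.37 and -0.40 from 2 to 4 h in a fit of all probe sets (adjusted p = 0.055 and 0.084), and by -0.10 and -0.18 against 0 h (adjusted p = 0.66 and 0.44).

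The receptor genes had the brightest probe sets of the 9. Tgfbr1 ran from 8.49 to 8.85 on WT and from 8.64 to 8.82 on KO arrays. Tgfbr2 ran from 8.80 to 9.10 on WT and from 8.76 to 9.19 on KO arrays. WT and KO overlapped over the course for both.

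No mean response of the receptors passed. That of Tgfbr1 was -0.14 ± 0.07 SE at 2 h (limma adjusted p = 0.14) and -0.04 at 4 h (0.74), with a 95% interval at 4 h of -0.18 to 0.10. That of Tgfbr2 was 0.01 ± 0.07 SE at 2 h (0.95) and -0.13 at 4 h (0.23), with an interval at 4 h of -0.29 to 0.03. At 2 h Tgfbr2 read 8.84 and 8.93 on WT and 9.19 and 9.13 on KO arrays, a difference of 0.28 that is given as a description.

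The 3 SMAD genes moved in different ways. Smad3, which binds DNA directly, read 7.70 and 7.78 on WT arrays at 0 h, then 7.94 and 7.92 at 2 h, then 7.34 and 7.31 at 4 h. On KO arrays it read 7.94 and 7.76, then 7.96 and 7.96, then 7.37 and 7.36. The 4 arrays at 4 h, between 7.31 and 7.37, lay below the other 8, which began at 7.70.

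Smad3 was 1.37-fold lower at 4 h than at 0 h (-0.45 ± 0.07 SE, limma adjusted p = 0.00011). From 2 to 4 h it was 1.52-fold lower (-0.60 ± 0.07 SE, adjusted p = 1.4e-05). The early change of 0.15 ± 0.07 SE did not pass (adjusted p = 0.12). A dimmer probe set, near the filter at 5.03 and of the type that can match other transcripts, showed 0.00 at 4 h (adjusted p = 0.99) and 0.05 from 2 to 4 h (0.87). The mean of all probe sets of Smad3 gave -0.20 at 4 h (adjusted p = 0.089) and -0.22 from 2 to 4 h (0.067), so neither fall passed with it.

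Smad7, the inhibitor, had an early peak. It read 7.21 and 7.22 on WT arrays at 0 h, then 7.67 and 7.72 at 2 h, then 7.38 and 7.45 at 4 h. KO arrays read 7.32 and 7.22, then 7.66 and 7.66, then 7.44 and 7.43. Under each label the 3 times did not overlap.

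At 2 h Smad7 was 1.35-fold higher than at 0 h (0.44 ± 0.07 SE, limma adjusted p = 0.00016). Its second probe set, also of a type that can match other transcripts, in the fit of all probe sets gave 0.40 ± 0.14 SE (adjusted p = 0.044). From 2 to 4 h Smad7 fell by 0.25 on the log2 scale (adjusted p = 0.016), which no longer passed when WT 2 h B or WT 4 h A was left out (0.059 at most), and the 4 h value was 0.18 above 0 h (adjusted p = 0.062).

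Smad2, the other receptor-activated SMAD of the pathway, had its lowest values at 2 h. WT arrays read 8.25 and 8.16 at 0 h, then 8.06 and 8.03 at 2 h, then 8.34 and 8.20 at 4 h. KO arrays read 8.12 and 8.17, then 7.84 and 8.05, then 8.23 and 8.35. Under each label both 2 h arrays were the lowest.

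The difference of Smad2 at 2 h from 0 h, -0.18 ± 0.07 SE, did not pass (limma adjusted p = 0.065), and its return from 2 to 4 h did (0.29 ± 0.07 SE, adjusted p = 0.0077). With the mean of both its probe sets the return was 0.16 (adjusted p = 0.21). The dimmer one changed by 0.04 in the fit of all probe sets.

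In contrast to Itgb8 and Aldh1a2, the other 7 genes had KO minus WT means over the times between -0.05 and 0.07. At single times they lay between -0.06 and 0.21 at 0 h, between -0.10 and 0.28 at 2 h, and between -0.13 and 0.04 at 4 h. These ranges hold for the brightest probe sets only. Dimmer ones past the filter could lie outside them: one of Tgfbr2 differed by -0.63 at 2 h, and one of Tgfb1 by 0.48 at 2 h and -0.32 at 4 h. The median size of such a difference over all genes was 0.10 for the mean over the times. These are descriptions of genes chosen together with Itgb8, and no test of a genotype difference was made on them.

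**Figure D3:**
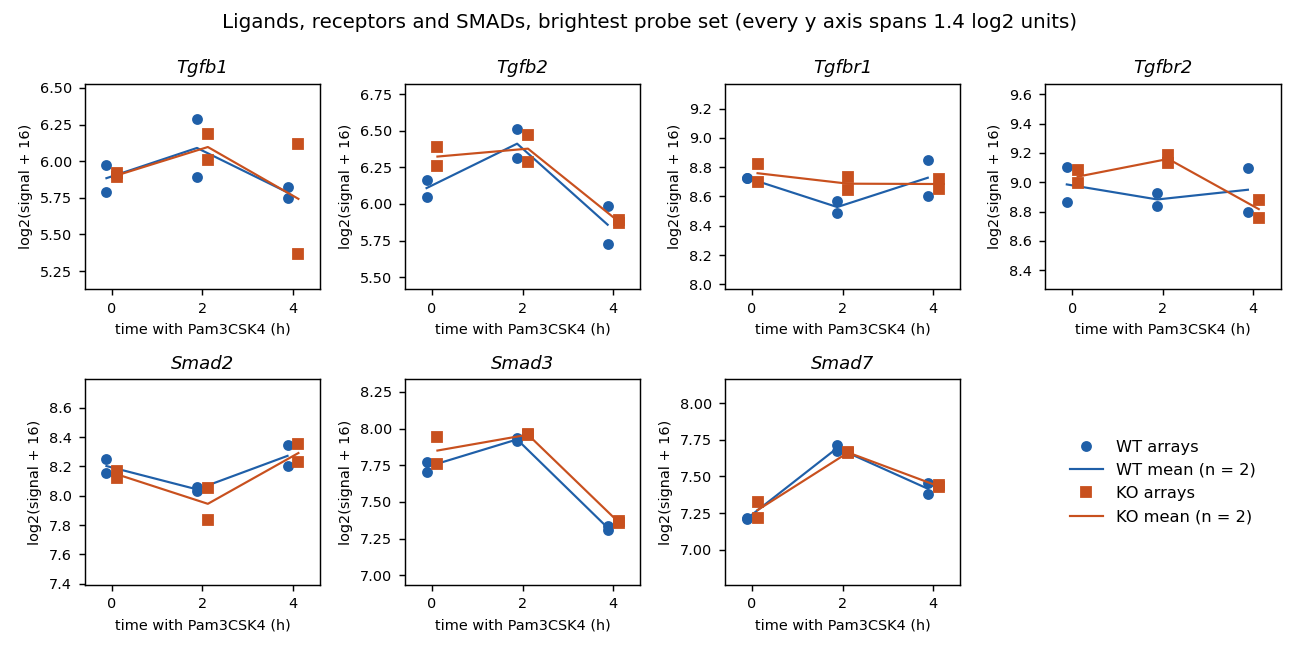
Signals of the 7 ligand, receptor and SMAD genes, as log2(signal + 16), on each of the 12 arrays at 0, 2 and 4 h; circles are WT arrays, squares KO arrays, lines join means of the 2 arrays, and every vertical axis spans the same width. Smad3 drops at 4 h to between 7.31 and 7.37, Smad7 peaks at 2 h between 7.66 and 7.72, and WT and KO arrays lie close together in these brightest probe sets.

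**Figure D4:**
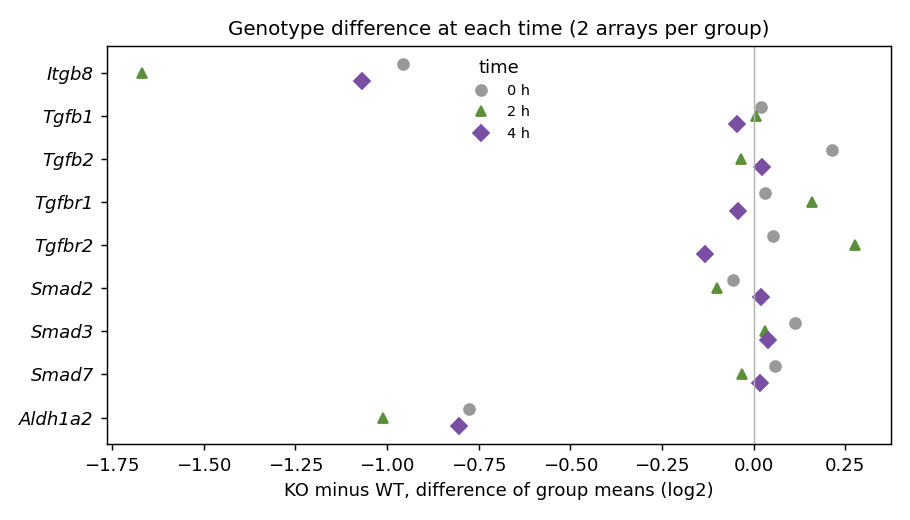
KO minus WT difference of the group means (2 arrays each), in log2 units, at 0, 2 and 4 h for the 9 genes; the values are descriptive. By the brightest probe set of each gene, Itgb8 lies between -1.67 and -0.96, Aldh1a2 between -1.01 and -0.78, and the other 7 between -0.13 and 0.28.

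The scale between arrays bears on all these changes. On the deposited scale, without normalization, the median of all genes itself moved by -0.37 at 2 h, -0.17 at 4 h, 0.19 from 2 to 4 h and -0.12 in KO minus WT. Itgb8 changed there by 1.22 at 2 h and 1.25 at 4 h, or 1.59 and 1.43 above the median gene. Smad7 at 2 h was 0.00 on that scale (limma adjusted p = 0.99) and 0.38 above the median gene. Smad3 from 2 to 4 h was -0.36 (adjusted p = 0.19), Tgfb2 -0.32 (0.21) and Smad7 -0.01 (0.99), or 0.55, 0.51 and 0.20 below the median gene. Aldh1a2, Smad2 and Tgfbr1 at 2 h passed there at -0.61, -0.60 and -0.55, or 0.24, 0.23 and 0.18 below the median gene. The directions given here are thus relative to the bulk of the genes.

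Around the 9 genes, 154 further genes of the pathway in 6 lists were examined, of which 120 were tested, 25 lay below the filter and 9 had no probe set with a single symbol. The lists were written with earlier results of these data known. At 2 h 29 rose and 15 fell (36.7%, against 31.3% of all genes), with 9 rising and 41 falling on the deposited scale. At 4 h 18 rose and 25 fell (35.8%, against 28.5%), with 6 and 23 on the deposited scale. From 2 to 4 h 9 rose and 28 fell (30.8%, against 22.5%); that balance turned to 9 and 3 on the deposited scale. The median change was 0.06, -0.05 and -0.11, against -0.05, -0.04 and 0.01 for all genes.

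**Figure D5:**
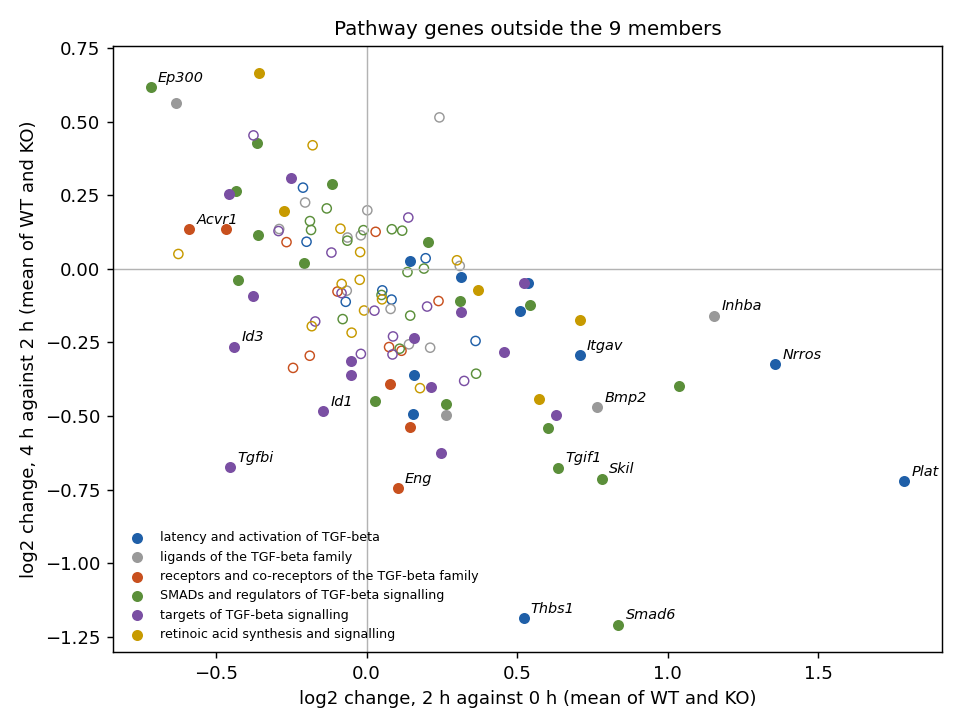
Change of the 120 pathway genes outside the 9, in log2 units and as the mean of WT and KO, from 0 to 2 h (horizontal) against 2 to 4 h (vertical), coloured by list; filled points passed an adjusted p of 0.05 in at least one of these comparisons. Plat and Nrros lie far to the right at 1.79 and 1.36, and Thbs1 and Smad6 lowest at -1.19 and -1.21; because both axes share the 2 h arrays, some downward slope is built into the plot, and on the deposited scale the median gene sits at -0.37 across and 0.19 up.

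Of 17 genes of latency and activation tested, 8 rose at 2 h, 0 fell and 9 did not pass (median 0.20), where 11.9% of all genes rose and 19.4% fell. Without normalization, as deposited, 3 rose and 1 fell, and the list median was -0.12. Itgav, the partner of Itgb8 in the activating integrin, rose by 0.71 ± 0.05 SE at 2 h (limma adjusted p = 2.1e-08) and was 0.42 up at 4 h. Its arrays read 9.79 and 9.67 (WT) and 9.79 and 9.72 (KO) at 0 h, and 10.54 and 10.43 (WT) and 10.44 and 10.38 (KO) at 2 h. Averaged over the times, Itgav differed between KO and WT by -0.01 ± 0.04 SE (adjusted p = 0.89). On the deposited scale Itgav passed at 2 h (0.38, adjusted p = 0.046) and not at 4 h (0.30, 0.21).

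Nrros, which tethers latent TGF-beta to the surface of myeloid cells, rose by 1.36 ± 0.06 SE at 2 h (limma adjusted p = 4.1e-11) and was 1.04 up at 4 h. Plat, tissue plasminogen activator, rose by 1.79 ± 0.07 SE (7.2e-12), and Furin, the protease that cleaves the propeptide, by 0.51 ± 0.08 SE (0.00018); on the deposited scale Furin was 0.08 (adjusted p = 0.74). Thbs1, thrombospondin 1, another activator of latent TGF-beta, was 2.28-fold lower at 4 h than at 2 h (-1.19 ± 0.09 SE, 2.6e-07) and 0.66 below its 0 h level (4.7e-05).

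Among 15 other ligands of the family and proteins that bind or process them, 2 rose and 1 fell at 2 h, and 3 rose and 0 fell at 4 h. These shares of 20% at either time lay below the background of all genes. Inhba, which encodes the activin A subunit, rose by 1.16 ± 0.18 SE at 2 h (limma adjusted p = 0.00012) and 1.00 at 4 h (0.00049). Bmp2 rose by 0.77 ± 0.11 SE at 2 h (4.4e-05) and fell back by 0.47 from 2 to 4 h (0.0049; on the deposited scale -0.29, adjusted p = 0.27). Bmp2 at 4 h (0.30) lost its call whichever of the 12 arrays was left out (adjusted p up to 0.15). Bmp1 at 4 h (0.76) lost it without KO 0 h A, KO 4 h B, WT 0 h A or WT 4 h B (up to 0.16). Gdf11, at 2 h (-0.63), lost it without KO 0 h B, KO 2 h A, WT 0 h B or WT 2 h B (up to 0.091).

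Among 13 other receptors and co-receptors, 8 fell and 0 rose at 4 h (median -0.31), where 16.7% of all genes fell, and 7 fell on the deposited scale. Eng, endoglin, a co-receptor prominent on endothelium and macrophages, was 1.56-fold lower at 4 h (-0.64 ± 0.07 SE, limma adjusted p = 6.8e-06). Acvr1, a type I receptor for bone morphogenetic proteins, was 0.59 lower at 2 h (6.7e-05) and 0.45 lower at 4 h (0.00074). Tgfbr3, betaglycan, which presents TGF-beta to the receptors, was 0.58 lower at 4 h (0.0026). Over the same interval 8 of 10 macrophage and monocyte markers fell and 1 rose, and 5 of 7 endothelial markers fell and 1 rose, with macrophage and monocyte sums of 3168 to 5375 at 0 h and 2072 to 3731 at 4 h; endothelial sums ran from 973 to 1399 at 0 h and from 869 to 1018 at 4 h. Their part in the receptor changes was not tested.

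Of 31 further SMADs and regulators, 9 rose and 6 fell at 2 h (48.4% called, against 31.3% of all genes). On the deposited scale 3 rose and 11 fell. The risers included repressors of SMAD signalling: Skil (SnoN) rose by 0.78 ± 0.06 SE (limma adjusted p = 2.1e-08), Tgif1 by 0.64 ± 0.05 SE (9.9e-08) and Pmepa1, which sequesters receptor SMADs, by 0.60 ± 0.07 SE (1.2e-05). Skil and Tgif1 then fell by 0.71 and 0.68 from 2 to 4 h (2.4e-07 and 1.8e-07), and on the deposited scale Tgif1 did not pass there (0.069). On the deposited scale Skil rose by 0.46 (0.015) while Tgif1 (0.27) and Pmepa1 (0.18) did not pass at 2 h. Tgif2, of the same list, went the other way, with -0.46 ± 0.09 SE at 4 h against 0 h (limma adjusted p = 0.00094). Its arrays read 7.11 and 6.94 (WT) and 6.80 and 6.90 (KO) at 0 h. At 2 h they read 6.39 and 6.53 (WT) and 6.60 and 6.52 (KO).

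Smad6, an inhibitory SMAD like Smad7, was 2.31-fold lower at 4 h than at 2 h (-1.21 ± 0.15 SE, limma adjusted p = 2.6e-05). Its 2 h arrays read 7.22 and 6.85 in WT and 6.90 and 7.55 in KO, and its 4 h arrays lay between 5.80 and 5.99. Ep300, the acetyltransferase that SMADs recruit, went the other way: -0.72 ± 0.07 SE at 2 h (1.4e-06) and 0.62 from 2 to 4 h (1.5e-05).

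Genes often induced by TGF-beta did not move as one. Of 27 tested, 7 rose and 5 fell at 2 h, 3 rose and 8 fell at 4 h, and 2 rose and 10 fell from 2 to 4 h (median -0.23), a balance that became 2 and 0 on the deposited scale. The shares called were 44.4%, 40.7% and 44.4%, against 31.3%, 28.5% and 22.5% of all genes. Tgfbi, an extracellular matrix gene named for its induction by TGF-beta, was 2.18-fold lower at 4 h (-1.13 ± 0.06 SE, limma adjusted p = 1.8e-09). Its probe set was of a type that can match other transcripts. Id3 and Id1, inhibitors of helix-loop-helix factors that bone morphogenetic proteins also induce, were 0.70 and 0.63 lower at 4 h (2.0e-06 and 3.3e-06). Cdkn1a, the cell cycle inhibitor p21, rose by 0.52 at 2 h and 0.47 at 4 h (1.7e-06 and 5.1e-06), and Spsb1, an adaptor that acts on the TGF-beta receptor, by 0.63 at 2 h (1.3e-06); at 2 h neither passed on the deposited scale, where each changed by 0.27 (0.10 and 0.18).

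The 7 risers at 2 h became 0 on the deposited scale and the fallers 12, so the early direction of this list holds only relative to the bulk of genes. Of the 30 genes listed, 5 are also cell type markers.

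Of 17 retinoic acid genes tested, 3 rose and 1 fell at 2 h and 1 rose and 1 fell at 4 h, or 23.5% and 11.8%, below the background. Dhrs3, which reduces retinaldehyde back to retinol, rose by 0.57 ± 0.11 SE at 2 h (limma adjusted p = 0.00079) and fell by 0.44 from 2 to 4 h (0.0084). Adh4, an alcohol dehydrogenase that oxidises retinol, rose by 0.71 ± 0.13 SE at 2 h (0.00058) and was 0.54 up at 4 h (0.0053). Its KO arrays at 0 h read 5.06 and 4.58, near the filter level of 4.73, and 5.74 and 5.62 at 4 h. The WT arrays of Adh4 read 5.64 and 5.43 at 0 h and 5.72 and 5.77 at 4 h, a smaller step. On the deposited scale the changes of Dhrs3 at 2 h (0.17, adjusted p = 0.43) and from 2 to 4 h (-0.22, 0.42) and of Adh4 at 4 h (0.42, 0.087) did not pass.

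Outside the 9 genes the KO minus WT contrast was tested. The lists were written with earlier results of these data known, so these shares and p-values may depend on that choice. Averaged over the times, 12 of the 120 pathway genes were higher and 9 lower in KO (17.5%, against 10.5% of all genes), with 2 higher and 11 lower on the deposited scale. Tgfbr3 was 0.73 ± 0.10 SE higher (limma adjusted p = 0.00025), with 6.73 and 6.89 in KO and 6.19 and 5.72 in WT at 0 h. Dhrs3 was 0.73 ± 0.09 SE higher (5.4e-05), Plau, urokinase, 0.60 ± 0.07 SE (3.8e-05), Tgm2, the transglutaminase that anchors latent complexes, 0.57 ± 0.04 SE (1.7e-07), and Tgfbi 0.39 ± 0.05 SE (0.00010). The probe sets of Tgm2 and Tgfbi were of types that can match other transcripts.

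Of these 5, Plau, Tgm2 and Tgfbi did not pass on the deposited scale, where they were 0.44, 0.35 and 0.17 higher (adjusted p = 0.062, 0.13 and 0.57) and the median gene was -0.12. The dendritic cell, macrophage and monocyte, endothelial, stromal and B cell sums given above were also higher on KO arrays. The migratory dendritic cell and Langerhans cell sums were not. What part the marker lists had in these differences was not tested.

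Lower in KO were Plat (-0.58 ± 0.05 SE, limma adjusted p = 3.5e-06), Cdkn2b, the cell cycle inhibitor p15 (-0.41 ± 0.05 SE, 5.0e-05), Spsb1 (-0.41 ± 0.05 SE, 6.7e-05) and Aldh1a3 (-0.43 ± 0.09 SE, 0.0073), which like Aldh1a2 encodes a retinaldehyde dehydrogenase. Aldh1a3 read 6.45 to 6.6 in WT and 5.99 to 6.43 in KO at 0 h, with no overlap. All 4 also passed on the deposited scale. Plat resembled Itgb8 in both respects: it rose under each label and was lower on KO than on WT arrays at each time, with 8.06 and 8.13 (WT) and 7.68 and 7.59 (KO) at 0 h and 10.10 and 9.97 (WT) and 9.30 and 9.24 (KO) at 2 h.

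Whether the KO response differed from the WT response was tested for the same 120 genes. With limma, 0 passed at 2 h and 0 at 4 h, where 0.0313% and 0.0469% of all genes did. At an unadjusted p under 0.05 there were 15 at 2 h and 14 at 4 h, 12.5% and 11.7%, against 5.89% and 6.06% of all genes.

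The 5 genes whose values over the 12 arrays followed those of Itgb8 most closely were Sh3bp4 (Pearson r = 0.96), Ago3 (0.95), Idi1 (0.95), Slc22a23 (0.95) and Ttc9 (0.94). The 12 arrays share their groups, so a gene that rose with time and was lower in KO scores high by that alone, and no p is given. Within groups, the deviations from the group means correlated at 0.20, 0.46, 0.17, 0.69 and -0.43. Mean KO minus WT differences of these genes ran from -0.59 (Ago3) to -0.26 (Slc22a23), smaller than the -1.23 of Itgb8.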

How the data were processed

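Affymetrix mouse 3′ expression arrays of 12 RNA samples gave 1 linear intensity per probe set and array, which the authors deposited as MAS5 values (tool named in the submitters' processing notes). Its version and target scale are not given in the sources used here. Deposited intensities shared no common scale (trimmed means differed 1.79-fold), so linear values were quantile-normalized and taken as log2(value + 16). The platform annotation gave 1 gene symbol to 34958 of 45101 probe sets, several to 932 and none to 9211. Genes were represented by their brightest probe set and kept at the 40th percentile of all probe sets, leaving 12792 tested. All arrays entered one limma 3.58.1 fit (R 4.3.3) with a mean for each of 6 groups (lmFit, eBayes with trend; 6 residual and 9.13 prior degrees of freedom), with two-sided tests and Benjamini-Hochberg adjustment per comparison at 0.05. Errors are standard errors unless marked SD. The number of arrays limits the precision.

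The 9 genes and all lists were chosen with earlier results of these data known. Named pathway genes were up to 4 called per list and mean response and up to 3 in KO minus WT, by smallest p; Flt3, Zbtb46, H2-Aa, Cd163 and Il2ra were added. The fit was tested on simulated data. Alternatives were the deposited and a trimmed-mean scale, pseudocounts of 1 and 64, no filter or the 60th percentile, other choices of probe sets, eBayes without trend, the replicate letter as a block, a threshold of 0.1 and each array left out. Promoter sequences and positions came from RefSeq tables of GRCm38.p6; probe sets matched to it by Entrez identifier numbered 34754.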

Additional observations from a re-analysis of the deposited data

Results flagged for a closer look

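For 2 genes every WT array at 2 h moved away from the WT 0 h arrays in the direction opposite to that of every KO array. They stood out among the genes chosen at the start and the pathway genes picked by smallest p, not among all pathway genes. The share of all genes with this pattern was not counted. With 2 arrays per group the spread between arrays alone can produce it, so nothing is read from the 2 genes. Plau rose on WT arrays (6.55 and 6.46 to 6.87 and 6.65) and read lower on KO arrays (7.31 and 7.32 to 7.19 and 7.14), a difference of responses of -0.40 that did not pass (limma adjusted p = 0.82). Nedd4l, a ubiquitin ligase that targets activated SMADs, read lower on WT arrays (8.02 and 8.0 to 7.88 and 7.88) and higher on KO arrays (7.96 and 8.05 to 8.16 and 8.21), a difference of 0.31 that did not pass either (adjusted p = 0.84).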

How the results depend on the processing

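Itgb8 kept its rise at 2 and 4 h under every alternative run (1.07 to 1.93 and 0.91 to 1.75). Its KO minus WT mean was -1.46 with a pseudocount of 1 and -0.86 with 64. The 4 h against 0 h pathway count fell from 43 to 26 (13 higher, 13 lower) with the mean of all probe sets; on the deposited scale 12 were called from 2 to 4 h in place of 37, and 13 in KO minus WT in place of 21. On the deposited scale these changes turned in sign, none of them called there and only that of Rdh11 called after normalization: at 2 h Tgfb1 -0.14, Tgfb2 -0.20, Tgfbr2 -0.39, Smad3 -0.27 and Rdh11 -0.021; at 4 h Smad2 -0.063 and Smad7 -0.0031; from 2 to 4 h Itgb8 0.034 and Tgfbr2 0.12. Tgfbr2 at 2 h was -0.0061 on the trimmed-mean scale. With the mean of all probe sets Tgfbr1 was 0.065, Tgfbr2 0.031 and Smad2 -0.0291 at 4 h. With 1 array left out, uncalled changes spanned 0: Tgfbr2 at 2 h -0.051 to 0.069, and at 4 h Tgfb1 -0.32 to 0.058, Tgfbr1 -0.10 to 0.025 and Aldh1a2 -0.22 to 0.036. The cause was not tested. Correlations of same-letter deviations between groups ran from -0.042 to 0.105, with 1 of 15 over 0.1. No strong pairing by letter was seen, but such correlations cannot exclude that same-letter arrays share an origin. With the replicate block the pathway counts were 45 at 2 h, 44 at 4 h, 37 from 2 to 4 h and 21 in KO minus WT. Signals near 10.6, such as the dim probe sets of Smad3 and Tgfbr2, carry little information, and 2 arrays per group limit all tests.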
